A study of Mus musculus with 6 samples.

Results

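The genes examined here encode the subunits of the proteasome and its close partners, read from bulk RNA sequencing of the mouse locus coeruleus. Members were the genes whose symbol starts with Psma, Psmb, Psmc, Psmd or Psme and a digit, without Psmb8, Psmb9 and the 4 genes named as pseudogenes. The rule gave 43 of the 56923 genes in the deposited table. Genes were kept for testing if 3 or more of the 6 libraries reached a normalized count of 10, which left 42 of the 43 and 16411 of all genes. Psmb11 was the member that it removed. Psmc3ip meets the naming rule but encodes a partner of a proteasome ATPase that works in meiotic recombination. Its values are given apart from the roles, but counts and medians over all members include it.

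Tissue was punched from brain slices at the locus coeruleus, the small brainstem nucleus that supplies noradrenaline to the forebrain, from wildtype (WT) mice and from 5xFAD transgenic mice. In 5xFAD mice the neuronal Thy1 promoter drives human transgenes that carry mutations of familial Alzheimer's disease, so amyloid accumulates in the brain. The WT libraries are numbered 62, 63 and 66 and the 5xFAD libraries 64, 65 and 79, and values below are in that order (n = 3 libraries per group). Age and sex are not in the labels, which also do not say that each library is a separate animal, so p-values measure only the spread between these libraries, part of which may be technical. The column names end in a lane-like number that runs in sequence through the WT and then the 5xFAD libraries. Its meaning is not given in the labels, so whether it marks a batch is not known.

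The proteasome degrades proteins that carry ubiquitin chains. Its 20S core is a barrel of stacked rings in which the outer alpha rings form a gate and the inner beta rings hold the cutting sites. The 19S particle caps the barrel: its base, built around ATPases, unfolds substrates and threads them in, and its lid removes ubiquitin. Other caps, the activators, open the gate without ATP, and immune signals exchange the cutting subunits for immunoproteasome forms. Neurons rely on the proteasome for protein turnover at synapses, and aggregated proteins such as amyloid and tau have been linked to its impairment.

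Libraries held 15158712 to 20079349 reads assigned to genes. Values are normalized counts, reads divided by 1 size factor per library, and differences are printed as 5xFAD over WT, on the scale of log2(normalized count + 1). The figure after ± is the SE for a fold change and the SD for a mean. Of the 16411 genes tested with limma, 1 gene was called at an adjusted p under 0.05, which is 0.00609% of them. That gene was Thy1, at 8755, 7976 and 9089.6 (WT) against 21875, 16885 and 22211 (5xFAD), with a log2 fold change of 1.23 ± 0.11 (95% interval 0.98 to 1.48) and adjusted p = 0.0456. Thy1 is the gene whose promoter drives the transgenes, and each 5xFAD library lay above each WT library. All 8 markers of noradrenergic neurons were detected in every library, with sums of 7957 to 14311 in WT and 11162 to 15743 in 5xFAD. All 5 markers of cerebellar granule cells, neurons of a neighbouring structure, were also detected in every library. These summed to 2045, 7157 and 2471 (WT) against 6231, 9194 and 3743 (5xFAD). Cbln1 gave 1716 of the sum in WT 62 and 1872 in WT 66, and ranged only 1.45-fold over the libraries. Cbln3, Fat2, Gabra6 and Neurod1 ranged 9.50-fold to 30.6-fold. Gabra6, for example, was at 48.3, 1079 and 70.4 (WT) against 817, 1402 and 341 (5xFAD).

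No proteasome gene passed the test between the genotypes, and in each the libraries of both overlapped. None of the 42 members was called, and the adjusted p from limma was 0.9995 for each. None had an unadjusted p under 0.05, a level that 2.32% of all tested genes reached, and the lowest was 0.108 for Psmc5. Tests on the recovered read counts called no member either, with edgeR calling 0.00609% and DESeq2 0.0106% of their genes, and no member had an unadjusted p under 0.05 by edgeR (2.33% of genes) or DESeq2. The groups did not overlap in 7.42% of all genes and in 0 of the 42 members, or in 1 member (Psma2, lower) under quantile normalization, beside 7.25% of all genes. The log2 fold change was above 0, called higher below, for 15 members and under 0, called lower, for 27 (64.3%), beside 50.2% higher and 49.8% lower among all genes. The median log2 fold change of the members was −0.012, or −0.010 without Psmc3ip, beside 0.00053 over all genes. In bulk tissue, fewer cells of a type and less RNA per cell cannot be told apart.

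The intervals were narrow enough to bound these differences. For 39 of the 42 members the 95% interval excluded a change of 1.5-fold in either direction, beside 71.4% of all genes. A 1.2-fold change lay outside the interval of 36 members, beside 36.3% of all genes. The members had higher normalized counts than most genes, with a median of 1213 against 319, and a smaller median SD within groups, 0.065 against 0.14 on the log2 scale. Psma8, Psme2b and Psmc3ip were the exceptions, each with a mean normalized count of 31.8 or less. Among the other 39 the log2 fold change lay between −0.13 for Psmc5 and 0.086 for Psmd11. Their highest library exceeded their lowest by 1.02-fold to 1.37-fold.

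**Figure D1:**
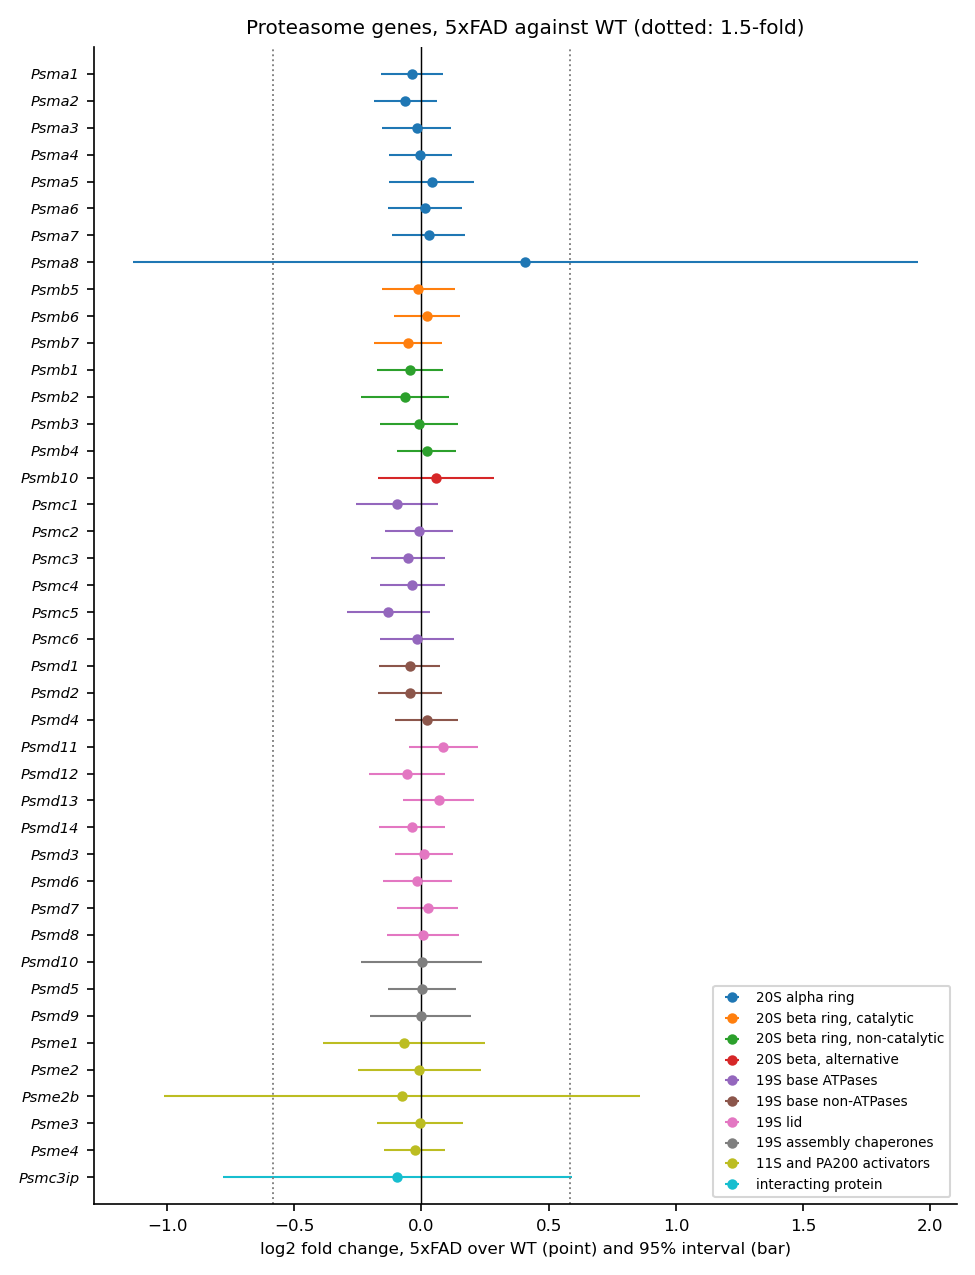
Log2 fold change of each of the 42 proteasome genes in 5xFAD over WT (points) with its 95% interval (bars), coloured by role, with dotted lines at a 1.5-fold change. All points but Psma8 lie near 0, and the bars of Psma8, Psme2b and Psmc3ip alone cross a dotted line.

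Promoters are shown for the members on which the results below turn and for those with a match to the antioxidant response element, the site bound by NFE2L1 and NFE2L2, the transcription factors known to raise proteasome genes when the proteasome is inhibited. The 250 bases before the start site were searched on both strands for 9 motifs in the RefSeq promoter table (build GRCm38.p6), in which 36 of the 43 members were matched. The letters TGACNNNGC occurred in 5 of the 36 (13.9%), beside 11.5% of the 27025 genes in the table and 13.9% of the other genes past the filter. The ETS letters CCGGAAG were in 12 of the 36 (33.3%), beside 7.83% of all genes and 14.0% of the others past the filter. The nuclear respiratory factor 1 motif (GCGC, any 2 bases, GCGC) was in 6 (16.7%, beside 5.64% of all genes and 11% of the others past the filter). A 60-base window of 7 promoters is printed 5′ to 3′ on the gene's strand, with the match in capitals. The antioxidant response element lies in the windows of Psmb5 (chr14:54618009-54618068, minus strand), Psmb6 (chr11:70525297-70525356), Psmc6 (chr14:45329574-45329633), Psmd12 (chr11:107479278-107479337) and Psmd9 (chr5:123228130-123228189). ETS letters lie in that of Psmc1 (chr12:100110142-100110201) and the nuclear respiratory factor 1 motif, which matches on either strand, in that of Psmc5 (chr11:106256111-106256170). All but Psmb5 are on the plus strand, and the matches in Psmc6, Psmd12 and Psmc1 are in the reverse orientation.
Psmb5: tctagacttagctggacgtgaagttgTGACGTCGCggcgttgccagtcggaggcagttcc
Psmb6: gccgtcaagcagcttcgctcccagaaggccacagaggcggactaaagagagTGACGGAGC
Psmc6: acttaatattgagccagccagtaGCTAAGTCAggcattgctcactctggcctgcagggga
Psmd12: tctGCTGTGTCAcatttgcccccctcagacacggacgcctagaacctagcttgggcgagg
Psmd9: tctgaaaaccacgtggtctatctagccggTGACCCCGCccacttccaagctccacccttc
Psmc1: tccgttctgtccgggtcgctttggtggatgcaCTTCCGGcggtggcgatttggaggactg
Psmc5: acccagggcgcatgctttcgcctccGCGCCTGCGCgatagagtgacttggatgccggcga
The match lies 47 bases before the start site in Psmb5, 9 in Psmb6 and 31 in Psmd9, but 227 in Psmc6 and 247 in Psmd12. In Psmc1 and Psmc5 it lies 28 and 49 bases before the start site. A match describes the letters only, and binding was not measured. For the remaining motifs, CCAAT was in 14 of the 36 members (38.9%, beside 37.5% of all genes and 40.1% of the others past the filter). GGGCGG was in 20 (55.6%, beside 35.4% and 62.1%) and the looser TGANNNNGC, which includes TGACNNNGC, in 14 (38.9%, beside 38.7% and 41.5%). The stricter nuclear respiratory factor 1 motif, with AT as the middle bases, was in 1 member (2.78%, beside 0.877% and 1.72%). AAGATGGCG, the YY1 letters, and the heat shock element (GAA, TTC and GAA, each 2 bases apart) were in none of the 36. They were in 0.710% and 0.514% of all genes and in 1.27% and 0.432% of the others past the filter.

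Among the alpha subunits, which form the gate of the core, 4 were higher and 4 lower in 5xFAD and none passed the test. Psma2 had the lowest unadjusted p of the 8, with normalized counts of 1819, 1763 and 1929.6 (WT) against 1741, 1754 and 1776 (5xFAD). All 3 5xFAD libraries lay in the lower part of the WT range or just under it, and the groups overlapped through WT 63. The means were 1837 ± 84.96 (WT) and 1757 ± 17.2 (5xFAD), with a log2 fold change of −0.063 ± 0.055 (95% interval −0.19 to 0.060) with an adjusted p = 0.9995 in limma. Psma1 had values of 1089, 1086 and 1064 (WT) against 1045, 1034 and 1078 (5xFAD), a log2 fold change of −0.037 ± 0.054 (95% interval −0.16 to 0.085). For Psma6 the values were 1580.4, 1468 and 1539.6 (WT) against 1510.4, 1458 and 1669 (5xFAD), and the 5xFAD libraries spanned the WT range. Psma3, Psma4, Psma5 and Psma7 had log2 fold changes of −0.019, −0.0050, 0.040 and 0.028. Psma8 encodes the alpha subunit of the testis proteasome, in which it takes the place of Psma7. It was near the limit of detection, at 11.1, 1.72 and 15.3 (WT) against 9.24, 6.24 and 15.996 (5xFAD), from 2 to 16 reads per library, and its log2 fold change of 0.41 ± 0.68 (95% interval −1.13 to 1.95) spanned a doubling in both directions.

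The catalytic subunits Psmb5, Psmb6 and Psmb7 carry the chymotrypsin-like, caspase-like and trypsin-like cutting sites, and none passed the test. Psmb5 had normalized counts of 979.6, 896 and 947 (WT) against 885, 953 and 959.8 (5xFAD), with the highest and the lowest library in different groups and 5 of the 6 between 896 and 980. Its log2 fold change was −0.013 ± 0.064 (95% interval −0.16 to 0.13). Psmb6 was at 1037, 1079.6 and 1101 (WT) against 1119.8, 1045 and 1102 (5xFAD), with a log2 fold change of 0.022 ± 0.058 (95% interval −0.11 to 0.15), and its lowest library was WT 62. Psmb7, the trypsin-like subunit, was at 1869, 1816 and 1856 (WT) against 1858, 1662 and 1831 (5xFAD). A single library, 5xFAD 65, lay below the rest of Psmb7's values, which ran from 1816 to 1869. The log2 fold change of Psmb7 was −0.052 ± 0.059 (95% interval −0.18 to 0.081). The promoter windows of Psmb5 and Psmb6 are among those printed above.

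Psmb1 to Psmb4 complete the beta ring without a cutting site. Of these 4, 1 was higher in 5xFAD and 3 were lower, and none passed the test. Psmb1 was at 1944, 1796 and 1915 (WT) against 1906, 1807 and 1769 (5xFAD), and WT 63 sat among the 5xFAD libraries. Psmb2 was at 609, 552 and 622 (WT) against 591, 582 and 532 (5xFAD), again with WT 63 inside the 5xFAD range, and its log2 fold change was −0.064 ± 0.077 (95% interval −0.24 to 0.11). For Psmb3 and Psmb4 the log2 fold changes were −0.010 and 0.020, with means of 1675 ± 27.005 (WT) and 1699 ± 37.2 (5xFAD) for Psmb4.

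Psmb10 encodes the immunoproteasome subunit that takes the place of Psmb7, and Psmb11 encodes a subunit of the thymus. Psmb10 had normalized counts of 281, 240.0 and 274 (WT) against 257, 291 and 279 (5xFAD), with WT 63 lowest and 5xFAD 65 highest. Its log2 fold change was 0.058 ± 0.10 (95% interval −0.17 to 0.28) with an adjusted p = 0.9995 in limma. The other immunoproteasome cutting subunits, which lie outside the naming rule, had few reads, and Psmb8 was at 39.9, 25.8 and 41.9 (WT) against 36.98, 33.3 and 19.995 (5xFAD). Psmb9 was at 14.9, 5.16 and 34.7 (WT) against 11.6, 13.5 and 11.997 (5xFAD). Neither passed the test, with log2 fold changes of −0.26 ± 0.30 (95% interval −0.94 to 0.42) and −0.19 ± 0.57 (95% interval −1.48 to 1.11). Psmb11 had no read in any library. Within each library the log2 ratio of Psmb10 to Psmb7, which does not depend on the size factor, was −2.73, −2.92 and −2.76 (WT) against −2.86, −2.51 and −2.71 (5xFAD). The means were −2.80 ± 0.10 and −2.69 ± 0.17 (SD), a difference of 0.11 that was 0.019 without 5xFAD 65. The difference of 0.11 was thus smaller than the SD among the 5xFAD libraries (0.17) but slightly larger than that among the WT libraries (0.10).

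The ATPases Psmc1 to Psmc6 form the ring that unfolds substrates, and all 6 were lower in 5xFAD, although none passed the test. Psmc5, which also had the highest level per length among members, had normalized counts of 5241, 4449 and 5257 (WT) against 4672, 4316 and 4639.9 (5xFAD). WT 62 and WT 66 were above every 5xFAD library, but WT 63 lay below 2 of the 3. The means were 4982 ± 462 (WT) and 4543 ± 197 (5xFAD), with a log2 fold change of −0.13 ± 0.073 (95% interval −0.29 to 0.034) with an adjusted p = 0.9995 in limma. The authors' deposited table gives −0.13 for Psmc5, with its sign turned to 5xFAD over WT, at p = 0.109. Psmc1 repeated this arrangement, at 4345, 3662 and 4183 (WT) against 4016, 3654 and 3716 (5xFAD), with WT 63 next to 5xFAD 65 at the low end. The log2 fold change of Psmc1 was −0.10 ± 0.072 (95% interval −0.26 to 0.067). Psmc3 was at 2327, 2129.9 and 2456 (WT) against 2299.6, 2132 and 2232 (5xFAD), lowest in WT 63, with a log2 fold change of −0.051 ± 0.065 (95% interval −0.20 to 0.094). For Psmc2, Psmc4 and Psmc6 it was −0.0099, −0.036 and −0.017, and the lowest library of each was 5xFAD 65. The median over the 6 was −0.044. The signs of Psmc2 and Psmc6 turned when some library was left out, and those of Psmc1, Psmc3, Psmc4 and Psmc5 did not.

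**Figure D2:**
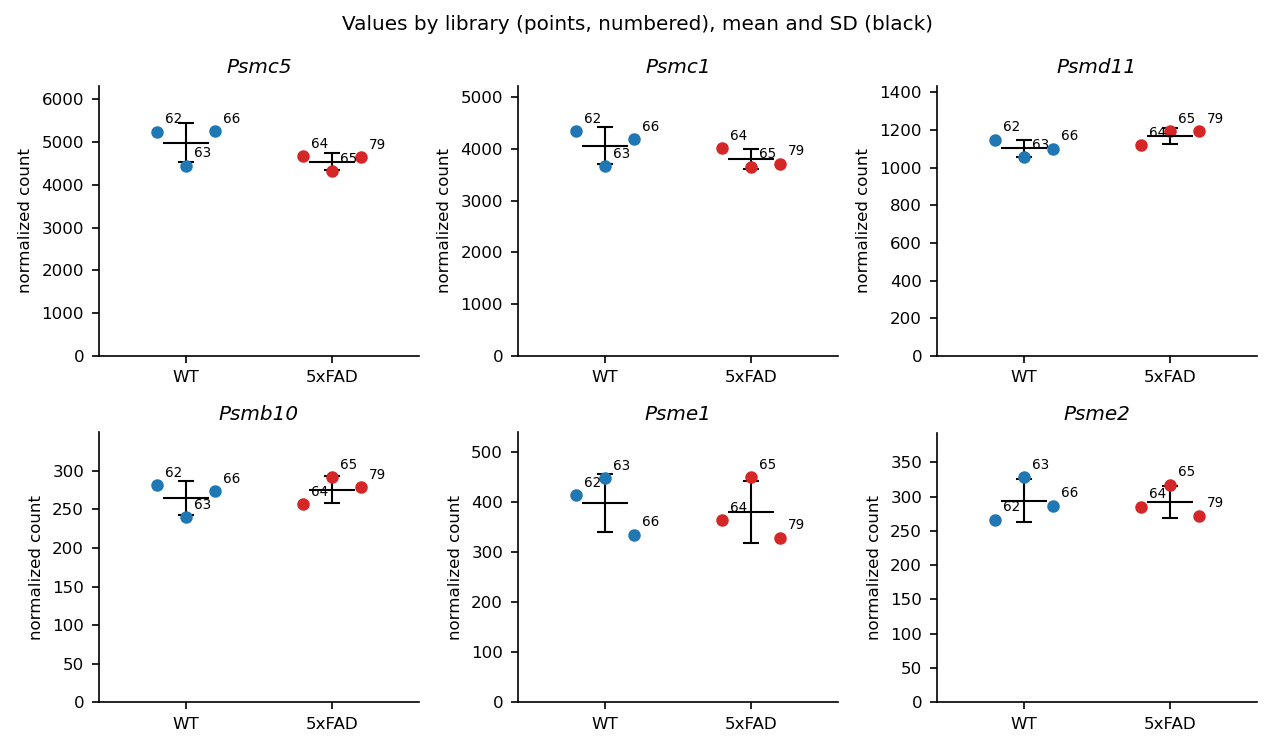
Normalized counts of Psmc5, Psmc1, Psmd11, Psmb10, Psme1 and Psme2 in each library (numbered points), with the mean and SD of each group in black. In every panel the groups overlap, and for Psmc5 and Psmc1 the WT library at the height of the 5xFAD libraries is 63.

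The rest of the base holds the scaffold subunits Psmd1 and Psmd2 and the ubiquitin receptor Psmd4. Psmd2 was at 4244, 3993 and 4377 (WT) against 4188, 3915 and 4129 (5xFAD), with 5xFAD 65 and WT 63 lowest. Psmd1 was at 3154, 2974 and 2952 (WT) against 2866, 2893 and 3029 (5xFAD), and 5xFAD 79 lay inside the WT range. None of the 3 passed the test, with log2 fold changes of −0.047 ± 0.054 (95% interval −0.17 to 0.073) for Psmd1, −0.044 ± 0.056 (95% interval −0.17 to 0.082) for Psmd2 and 0.021 for Psmd4.

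In the lid 5 of 8 subunits were higher in 5xFAD and 3 lower, and none passed the test. Psmd11, a subunit that braces the lid against the core, had normalized counts of 1148, 1056 and 1099.6 (WT) against 1119, 1194 and 1193 (5xFAD). The 5xFAD libraries held the top 2 values but 5xFAD 64 lay inside the WT range. Its log2 fold change was 0.086 ± 0.060 (95% interval −0.049 to 0.22) with an adjusted p = 0.9995 in limma. Psmd13 was at 1033, 937 and 982 (WT) against 999.6, 1025 and 1069 (5xFAD), with WT 62 above 2 of the 5xFAD libraries, and its log2 fold change was 0.068 ± 0.062 (95% interval −0.072 to 0.21). Psmd12, whose promoter window is printed above, was at 2291, 1973 and 2203 (WT) against 2116, 1988 and 2102 (5xFAD), with WT 63 lowest and a log2 fold change of −0.057 ± 0.066 (95% interval −0.21 to 0.091). Psmd14, the enzyme that cuts ubiquitin chains off the substrate, had means of 1361 ± 13.6 (WT) and 1328 ± 69.1 (5xFAD) and a log2 fold change of −0.037. Psmd3 was the steadiest of the 42 members, at 1449, 1472 and 1475 (WT) against 1475, 1463 and 1486 (5xFAD), a spread of 1.02-fold over the 6 libraries. Psmd6, Psmd7 and Psmd8 had log2 fold changes of −0.017, 0.024 and 0.0072.

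Psmd5, Psmd9 and Psmd10 encode chaperones that help to assemble the base and are absent from the finished particle. Their log2 fold changes were the closest to 0 of any role, at 0.0025 ± 0.059 (95% interval −0.13 to 0.14), −0.0031 ± 0.089 (95% interval −0.20 to 0.20) and 0.0013 ± 0.11 (95% interval −0.24 to 0.24). Mean normalized counts of Psmd5 were 1218 ± 23.4 (WT) and 1221 ± 61.5 (5xFAD), those of Psmd9 355 ± 30.6 (WT) and 353 ± 10.1 (5xFAD) and those of Psmd10 331 ± 41.3 (WT) and 329.9 ± 20.1 (5xFAD), all closer than their SDs.

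The activators comprise Psme1 and Psme2, which form an interferon-induced cap, Psme3, which forms a nuclear one, and Psme4, which caps nuclear proteasomes that act on histones. None of these or Psme2b passed the test, and all 5 were lower in 5xFAD, with a median log2 fold change of −0.026. The signs of Psme1, Psme2, Psme2b and Psme3 turned when some library was left out, and that of Psme4 did not. Psme1 had the widest range of the 39 members with a mean of at least 100, at 414, 447 and 335 (WT) against 364, 449 and 329 (5xFAD). WT 63 and 5xFAD 65 were its highest libraries, and WT 66 and 5xFAD 79 its lowest. Its log2 fold change was −0.068 ± 0.14 (95% interval −0.39 to 0.25) with an adjusted p = 0.9995 in limma. Psme2 was at 266, 328 and 287 (WT) against 285, 317 and 272 (5xFAD), also highest in WT 63 and 5xFAD 65, with a log2 fold change of −0.0085 ± 0.11 (95% interval −0.25 to 0.23). Psme3 had values of 2013, 1633 and 1841 (WT) against 1820.1, 1803 and 1822 (5xFAD), all 3 5xFAD libraries falling inside the WT range, and a log2 fold change of −0.0058 ± 0.075 (95% interval −0.17 to 0.16). Psme4 was at 1104, 1104 and 1127 (WT) against 1097, 1105 and 1073 (5xFAD), and its log2 fold change was −0.026 ± 0.053 (95% interval −0.15 to 0.094). Psme2b, a close relative of Psme2 at a low level, was at 8.36, 17.2 and 26.5 (WT) against 17.3, 13.5 and 13.997 (5xFAD), and reads of the pair may be split between them in an unknown way. Psmc3ip was at 30.6, 24.1 and 43.9 (WT) against 25.4, 41.6 and 24.99 (5xFAD), with a log2 fold change of −0.095 ± 0.31 (95% interval −0.78 to 0.59).

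The libraries with low proteasome values were spread over both genotypes. Each member's log2 value was set against its own mean over the 6 libraries, and the median of these deviations was taken over the 39 members with a mean of at least 100. It was 0.027 in WT 62, −0.047 in WT 63 and 0.027 in WT 66, and 0.0054 in 5xFAD 64, −0.038 in 5xFAD 65 and 0.013 in 5xFAD 79. For all tested genes this median lay between 0.0019 and 0.0047 in every library. WT 63 or 5xFAD 65 was the lowest library in 25 of the 42 members, beside 36.9% of all genes, and the highest in 4, beside 36.2% of all genes. Psmb10, Psmd11, Psme1 and Psme2 were those 4. Over the 39 members the median was thus low in 1 library of each genotype, though not in every role. For the ATPases it was −0.068 in WT 63 and −0.094 in 5xFAD 65, but for the 5 activators 0.16 and 0.0051. The catalytic subunits were at −0.00089 in WT 63 and the lid at −0.0066 in 5xFAD 65.

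Cell type markers moved with the same libraries. WT 63 and 5xFAD 65 had the highest sums of the 5 granule cell markers within their genotype (7157 and 9194), and the highest of the 8 noradrenergic markers (14311 and 15743). They had the lowest sums of the 6 oligodendrocyte markers (206587 and 199494, against 250469 to 311565 in the other libraries) and of the 7 general neuron markers (75707 and 72329, against 76226 to 79692). Snap25 held the largest share of that neuron sum, and within each genotype Syt1, Rbfox3 and Stmn2 of the same list were instead highest in WT 63 and 5xFAD 65. All markers of these 4 lists were above 0 in every library. The pattern was not complete, since 5xFAD 64 also had a high granule cell sum, 6231, with a median deviation of 0.0054. Sums of the other lists ran from 42904 to 48227 (WT) and 45478 to 46487 (5xFAD) for 6 astrocyte markers, 3244 to 3777 (WT) and 3478 to 3695 (5xFAD) for 6 microglia markers and 3025 to 3552 (WT) and 3353 to 3410.2 (5xFAD) for 5 endothelial markers. Within each genotype the microglia and endothelial sums were also lowest in WT 63 and 5xFAD 65. The astrocyte sum, of which Aldoc holds the largest share, was lowest in WT 63 but highest in 5xFAD 65. Gfap, which marks reactive astrocytes and was singled out with its values known, stood at 1576, 2117 and 1493 (WT) against 3074, 2397 and 2532 (5xFAD), without overlap. Its log2 fold change was 0.63 ± 0.15, with an adjusted p of 0.9995 in limma and of 0.0244 in the authors' deposited table. The 4 choroid plexus markers summed to 97.5 to 1304 (WT) and 120.0 to 142 (5xFAD), the top value being that of WT 66. The part of tissue makeup in the members' values was not tested.

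**Figure D3:**
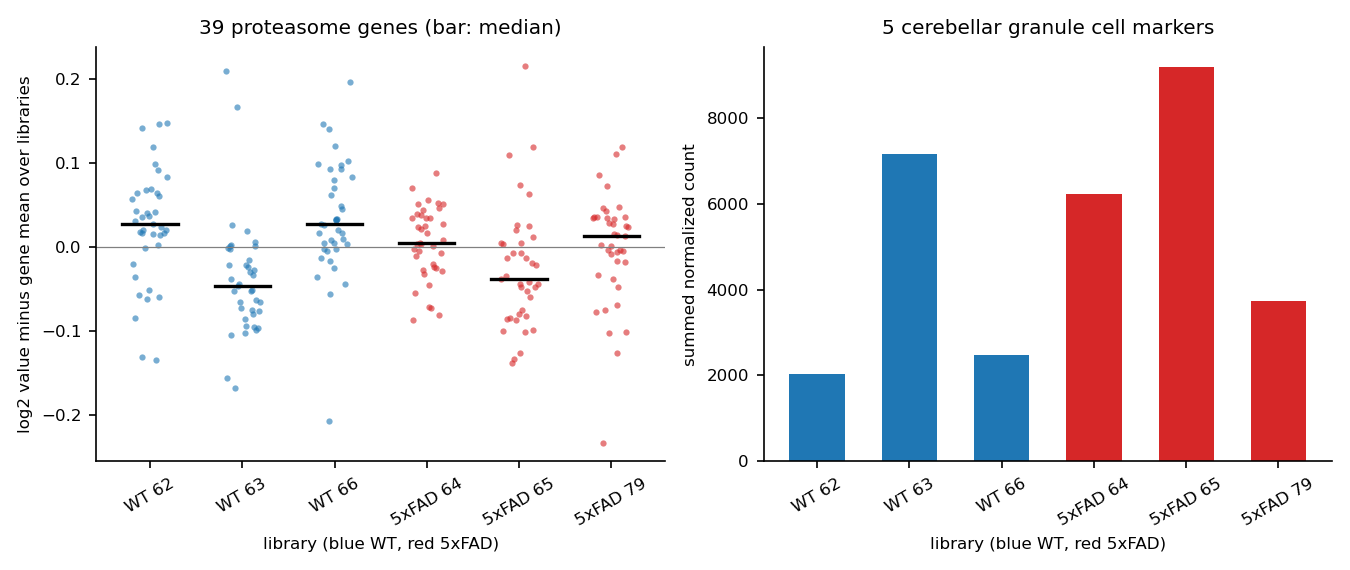
Left, log2 value of each of 39 proteasome genes with a mean of at least 100 minus its mean over the 6 libraries (points) with the median (bar), by library. Right, summed normalized count of 5 cerebellar granule cell markers in the same libraries; the medians are lowest in WT 63 and 5xFAD 65, whose marker sums are 7157 and 9194.

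Of the libraries left out in turn, WT 63 moved the members' median and the count without overlap most. Without it 10 members were higher and 32 lower in 5xFAD (49.6% and 50.4% of all genes), and the median log2 fold change was −0.034. The groups then did not overlap in 11 members (26.2%), all lower in 5xFAD, beside 23.8% of all genes in either direction and 11.5% lower. These were Psma2, Psmb1, Psmb2, Psmc1, Psmc3, Psmc4, Psmc5, Psmd2, Psmd6, Psmd12 and Psme3. Without WT 63 the log2 fold change of Psmc5 was −0.21 (SE 0.058) and that of Psmc1 −0.17 (SE 0.061), both at an adjusted p of 0.813 in limma. An unadjusted p under 0.05 was reached by these 2 members and by 6.03% of all genes. Without WT 62 the groups did not overlap in 2 members (14.0% of all genes) and without WT 66 in 4 (14.8%). Without 5xFAD 64, 65 and 79 the count was 3, 4 and 3 (13.9%, 17.5% and 19% of all genes). As many members were higher as lower without WT 66, 21 each (49.6% and 50.4% of all genes).

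Levels of different genes were compared per kilobase of transcript, with lengths from GENCODE M21 (GRCm38), since longer transcripts yield more reads. The 14 constitutive core subunits, which the finished particle holds in equal number, spanned a 3.26-fold range, from 480.1 normalized counts per kilobase for Psma3 to 1565 for Psmb7, with a median of 992. The lowest, Psma3 and Psma2 (617), have the longest transcripts of the 14, at 2846 and 2911 bases. The low end of the range thus depends on these lengths. Immunoproteasome Psmb10 was at 206, below every constitutive core subunit. Among the ATPases, also present in equal number, the range was 4.05-fold, from 894 for Psmc4 through 1383 for Psmc3 and 2469.7 for Psmc1 to 3619 for Psmc5. Psmc5 and Psmc1 had the most RNA per length of all 43 members. The 3 base scaffolds and receptor lay at 957 (Psmd1), 1386 (Psmd4) and 1399 (Psmd2). In the lid the range ran from 398 for Psmd11 to 1109 for Psmd12. Among activators and chaperones the level was 684 for Psme3, close to Psmd3 of the lid and above the lowest core subunits. The rest were below every constitutive core subunit, with Psme1 at 350.5, Psme2 at 304, Psme4 at 169.7, Psmd5 at 277, Psmd10 at 231 and Psmd9 at 136. An alternative added after the data were seen used the length of all exons together in place of a transcript length. It left the order of the ATPases the same, and the most abundant lid subunit was Psmd7 in place of Psmd12. The core kept Psma3 and Psmb7 as its ends and its 3.26-fold range, but its order changed and its median was 811. Psmb1 went from 1056 to 542 normalized counts per kilobase and Psmd4 from 1386 to 1005.

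**Figure D4:**
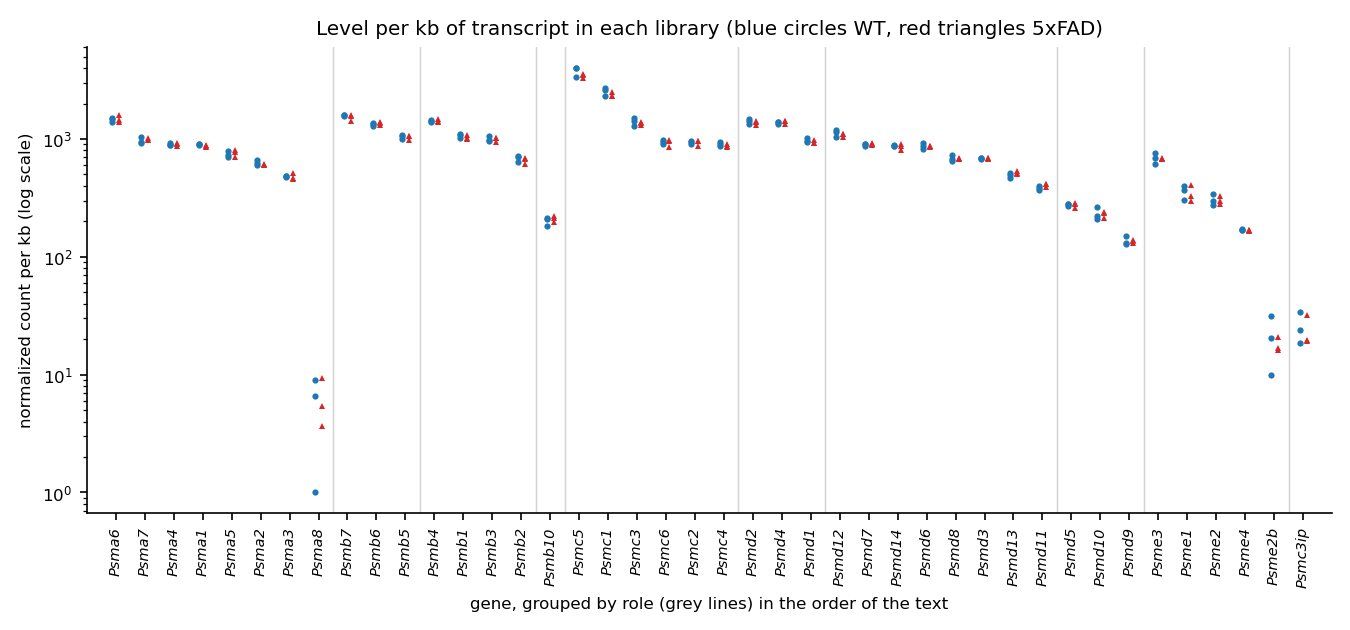
Normalized count per kilobase of transcript (log axis) for each member above 0 in each library, WT as blue circles and 5xFAD as red triangles, grouped by role. Within a gene the 6 points lie close together for all but the rarest genes. The ATPases differ by up to 4.05-fold, and the roles that hold Psma8 and Psme2b by more.

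Genes that assemble, regulate and feed the proteasome were read from 6 further lists, with 47 genes tested. None was called and none had an unadjusted p under 0.05 in limma. By the sign of the log2 fold change 13 were higher in 5xFAD and 34 lower, with a median log2 fold change of −0.026, and 42 had intervals that left out a 1.5-fold change. Among other subunits and regulators outside the naming rule 5 of 5 were lower, including the ubiquitin receptor Adrm1 at 679.7, 676 and 746 (WT) against 646, 694 and 681 (5xFAD) (log2 fold change −0.056 ± 0.069) and the inhibitor Psmf1 (−0.052 ± 0.068). In the list of core assembly chaperones 2 were higher and 3 lower. Pomp, the maturation factor of the core, had a log2 fold change of −0.076 ± 0.058, Psmg2 0.12 ± 0.11, Psmg3 −0.21 ± 0.18 and Psmg4 0.37 ± 0.23. The 19S accessory list had 1 higher and 7 lower of 8, among them the deubiquitinases Uchl5 (−0.12 ± 0.079) and Usp14 (−0.069 ± 0.055), the thioredoxin-like Txnl1 (−0.058 ± 0.051) and the ubiquitin ligase Ube3a (−0.033 ± 0.051).

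Nfe2l1 encodes the factor that raises proteasome genes when the proteasome falls short. Its normalized counts were 7276, 6543 and 7529 (WT) against 7063, 6631 and 7225 (5xFAD), lowest in WT 63 and 5xFAD 65, with a log2 fold change of −0.028 ± 0.065. In its list 4 genes were higher and 5 lower of 9 tested, and Ddi1 was under the filter. Ddi1, chosen after its values were seen, had no read in WT and normalized counts of 3.47, 7.28 and 1.9995 in 5xFAD, 12 reads in all. The authors' deposited table gives Ddi1 an adjusted p of 0.9999 (0.0125 before adjustment). Ngly1 and Ddi2, the enzymes that process NFE2L1 into its active form, had log2 fold changes of 0.061 ± 0.075 and −0.032 ± 0.075. The partner genes Maff and Mafk had 0.31 ± 0.36 and −0.080 ± 0.13. Of the 10 ubiquitin genes and enzymes 3 were higher and 7 lower. Ubb, a gene for ubiquitin itself, was at 16684, 16003 and 16259.8 (WT) against 15877, 15516 and 16685 (5xFAD), with a log2 fold change of −0.026 ± 0.052. Ube2n and the activating enzyme Uba1 had log2 fold changes of −0.058 ± 0.057 and 0.0078 ± 0.047. Of the 11 genes of substrate shuttling and unfolding 3 were higher and 8 lower, with Ubqln1 at −0.094 ± 0.058, Ubqln4 at −0.049 ± 0.060, Nbr1 at 0.052 ± 0.058, the receptor Sqstm1 at −0.0096 ± 0.052 and the unfolding ATPase Vcp at 0.0044 ± 0.054. Over the 6 lists the groups did not overlap in 3 of the 47 genes, beside 7.42% of all genes in either direction. All 3 were lower in 5xFAD, with Txnl1 and Ube3c among them, beside 3.7% of all genes lower.

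In the authors' deposited table, the 42 members likewise had no adjusted p under 0.05 (0.0106% of its genes), and none had an unadjusted p under 0.05, which 0.731% of its genes had. Its fold changes for the members, turned to 5xFAD over WT, lay between −0.21 and 0.18 on the log2 scale. Exons of 12 of the 43 members overlap those of another gene in GENCODE M21, so part of their reads could belong to the neighbour. Psmb7, Psmb5, Psme1, Psmd1 and Psmd13 are among these, and Psmc1 and Psmc5 are not. For Psmb5 the only overlapping gene is that of a microRNA, Mir686.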

How the data were processed

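RNA from locus coeruleus punches was measured in 3 WT and 3 5xFAD libraries, made with poly-A selection per the labels' protocols. STAR, RSEM, DESeq2 and build mm39 are named in the submitters' processing notes; the sources used here give no versions, strand or annotation. The deposited table is named as TPM, but the authors deposited a signal, reads per gene over a size factor for each library, since 100% of values were whole multiples of 1 step (tolerance 0.001). A test for normalized values was therefore kept. It also holds the authors' log2 fold change (WT over 5xFAD, sign turned here), test score, p-value and adjusted p-value, per the file headers.

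Values were tested as log2(value + 1) with limma 3.58.1 (variance trend, robust) in R 4.3.3, with Benjamini-Hochberg adjustment over 16411 genes, after a filter of 10 in at least 3 of 6 libraries. DESeq2 1.42.0 and edgeR 4.0.16 were run on the recovered reads, and other scalings, pseudocounts (0.5 and 5), filters and left-out libraries were tried. The fits were tested on simulated data. Symbols were matched by identifier for 91.5% of the genes. Promoter letters came from the RefSeq table (GRCm38.p6) and lengths from GENCODE M21. Reads per library were 15158712 to 20079349. The members and all gene lists were chosen with earlier results of these data known. Named were the catalytic, alternative and activator subunits, in each role or pathway list the 3 genes of lowest p and the 2 of highest mean, and members under the filter. Other members are given by their fold changes, and Psmb9, Psmd14 and Ube3c were named after their values were seen. A few genes that this rule names are not reported here.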

Additional observations from a re-analysis of the deposited data

How the results depend on the processing

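No paired analysis was possible because the WT and 5xFAD library numbers share none. With 3 libraries per group, leaving 1 out leaves 2, and depth limits Psma8, Psme2b and Psmc3ip most. No member was called under any setting. The 1 gene called among all became 3 with DESeq2 and 0 with neither variance trend nor robust moderation, and 0 to 2 when a library was left out; the cause was not tested. Members without overlap numbered 0 under every scaling but quantile normalization, where 1 (Psma2, lower; 7.25% of all genes) had none, and 2 to 11 when a library was left out, which compares fewer libraries. Members with a log2 fold change above 0 numbered 13 to 15 over the other settings and 10 to 21 with a library left out. The count of intervals that exclude 1.5-fold was 39 wherever it was computed. Of 375 member values under settings that keep all libraries, 370 kept their sign. The 5 that did not belong to Psmd10 (−0.0030 with DESeq2 on recovered reads, −0.00078 with TMM factors, −0.0052 with edgeR on recovered reads, −0.020 with quantile normalization) and Psmd5 (quantile normalization −0.016); the cause was not tested. The sign of 23 members turned when some library was left out, with log2 fold changes over these settings of Psma3 −0.069 to 0.013, Psma4 −0.020 to 0.017, Psma5 −0.0060 to 0.10, Psma6 −0.043 to 0.055, Psma7 −0.0027 to 0.077, Psma8 −0.38 to 0.91, Psmb10 −0.012 to 0.11, Psmb3 −0.044 to 0.037, Psmb5 −0.048 to 0.024, Psmb6 −0.0022 to 0.051, Psmc2 −0.038 to 0.031, Psmc3ip −0.33 to 0.13, Psmc6 −0.057 to 0.045, Psmd10 −0.066 to 0.10, Psmd14 −0.071 to 0.0034, Psmd5 −0.025 to 0.044, Psmd6 −0.059 to 0.025, Psmd8 −0.033 to 0.056, Psmd9 −0.044 to 0.067, Psme1 −0.19 to 0.031, Psme2 −0.076 to 0.073, Psme2b −0.50 to 0.28 and Psme3 −0.085 to 0.066. Intervals under edgeR and overlap under edgeR and DESeq2 were not computed, and an alternative that leaves out Psme3ip1 could leave out only Psmc3ip.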
